A study of Homo sapiens with 22 samples.

Results

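The metallothionein genes MT1F, MT1X and MT2A were followed in heat-shocked and recovering HEK293T cells. The probes used were those to which the platform annotation gives 1 of these symbols and no other. Each gene had 1 probe, so the members were 3 of 18852 annotated genes and 3 of the 48803 probes on the array. HEK293T is an easily transfected line derived from human embryonic kidney and expresses the SV40 large T antigen. All cells had been transfected with a small interfering RNA (siRNA), either a scrambled sequence or one directed at Satellite III (Sat III) transcripts, the long non-coding RNAs of pericentromeric repeats that heat stress switches on in human cells. Within each siRNA arm the cells were kept untreated at 37 °C, heat-shocked in a water bath at 42 °C for 1 h, or heat-shocked in the same way and given 6 h of recovery. There were 22 arrays in 6 groups, with 4 samples of each treatment in the scrambled arm, and 3 untreated, 3 heat-shocked and 4 recovering ones in the Sat III arm. No group was left without transfection, and no probe is named for Sat III transcripts, so the knockdown itself was not checked here. The labels give replicate numbers but no separate cultures, so the p-values cover only sample-to-sample spread that could be technical.

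Metallothioneins are small cysteine-rich proteins that hold zinc and copper ions in thiolate clusters, buffer free zinc and bind toxic metals such as cadmium. Their genes lie in 1 cluster on chromosome 16. They are switched on by metal-responsive transcription factor 1 (MTF1), a zinc finger protein that senses free zinc and binds metal response elements near the gene start. Glucocorticoids and oxidative stress are also known inducers. MT2A is the broadly expressed main form in many human tissues, and MT1F and MT1X are isoforms of the MT1 subfamily that arose by gene duplication. In the RefSeq annotation of GRCh38.p14 all 3 members lie on the plus strand of chromosome 16, MT2A at positions 56608584 to 56609497, MT1F at 56657959 to 56659303 and MT1X at 56682470 to 56684196.

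The promoters of MT2A and MT1X are shown because both hold letter matches to the core of the element that MTF1 binds. Binding of MTF1 and its part in the members' responses were not tested. They are from RefSeq (GRCh38.p14) and run from 250 bases before to 50 bases after the annotated start, MT2A at chr16:56608334-56608633 and MT1X at chr16:56682220-56682519, both on the plus strand. The promoter of MT1F is not shown. Capitals mark the core of the metal response element, searched as TGCACNC and TGCGCNC on both strands.
MT2A: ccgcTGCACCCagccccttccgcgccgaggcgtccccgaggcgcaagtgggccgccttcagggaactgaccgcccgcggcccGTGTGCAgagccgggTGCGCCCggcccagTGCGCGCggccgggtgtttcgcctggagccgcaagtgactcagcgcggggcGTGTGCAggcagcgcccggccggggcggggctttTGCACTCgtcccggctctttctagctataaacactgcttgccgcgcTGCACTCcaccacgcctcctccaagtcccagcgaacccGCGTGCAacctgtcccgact
MT1X: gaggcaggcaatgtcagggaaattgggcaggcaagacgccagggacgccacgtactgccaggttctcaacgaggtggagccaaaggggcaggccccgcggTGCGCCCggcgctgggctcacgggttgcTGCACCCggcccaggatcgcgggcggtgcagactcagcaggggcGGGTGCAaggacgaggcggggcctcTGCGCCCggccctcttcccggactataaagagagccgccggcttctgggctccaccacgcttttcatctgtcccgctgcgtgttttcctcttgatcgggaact
The MT2A promoter held 8 such cores, 6 of the A form and 2 of the G form, and the MT1X promoter held 4, 2 of each form. Of 35116 human promoters of the same length, 29.6% held at least 1 core of either form, 0.601% held at least 4 and 0.0199% held at least 8. A TATAAA box began 29 bases before the MT2A start and 30 bases before the MT1X start, a motif found in 11.5% of promoters. The antioxidant core TGACNNNGC, present in 13.3% of promoters, occurred 1 time in each, and in MT2A it overlapped a TGACTCA site of the AP-1 factors 104 bases before the start, a motif found in 4.95% of promoters. The inverted pairs of the heat shock element, GAANNTTC and TTCNNGAA, which were present in 6.77% and 7.74% of promoters, occurred in neither window. The promoter of HSPA6, a strictly inducible HSP70 gene, held 2 of the first and 1 of the second. These are letter matches only.

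**Figure D1:**
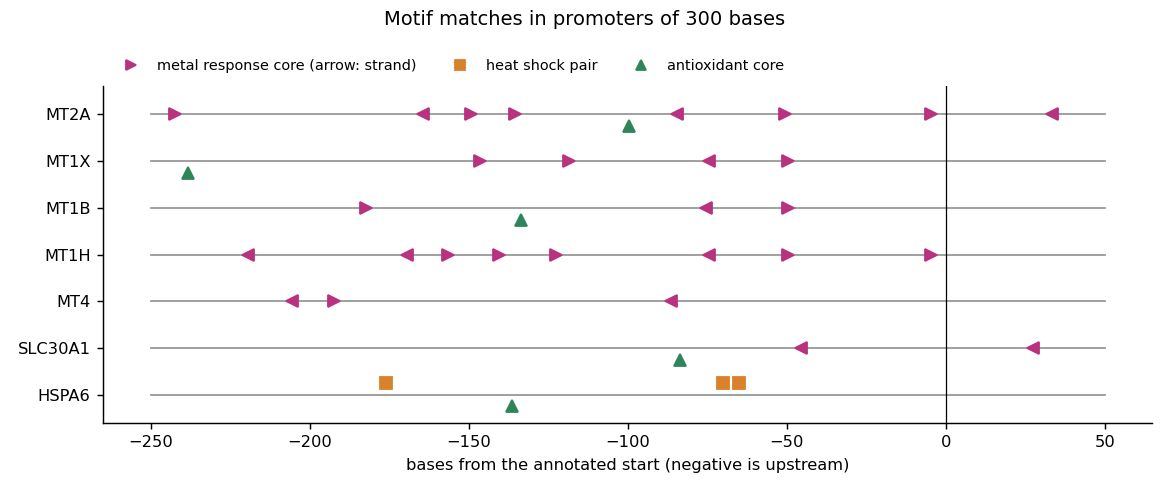
Positions of motif matches in the promoters of 5 metallothionein genes, of SLC30A1 and of HSPA6. The horizontal axis is the distance in bases from the annotated start, arrowheads are metal response cores pointing along their strand, squares are heat shock pairs and triangles are antioxidant cores. MT2A and MT1H hold 8 metal response cores each and MT1X holds 4, whereas HSPA6 holds none and carries the heat shock pairs.

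The deposited scanner table gives an intensity and a detection p-value for each probe on each array. Median intensity ran from 48.9 to 64.6, and 27.0% to 30.5% of probes were detected at a p-value under 0.01. Values below are log2 intensities after background correction and quantile normalisation, and changes are differences of group means on that log2 scale from limma, fitted over all 22 arrays and adjusted by the Benjamini-Hochberg method over the 15324 probes tested, with a threshold of 0.05. Of the 22 columns that the authors normalised, 15 matched the scanner column of the same label in probe order, with a rank correlation that rounds to 1, and 7 did not, at 0.830 to 0.856, namely those of replicate 4 in all 6 groups and that of Sat III recovery replicate 3, so the results were also computed from the 15 matching arrays. For 6 of the 7 scanner arrays the order was instead that of the column next in the series, with a rank correlation that rounds to 1, so those columns carry the label of another group, and the column labelled Sat III recovery replicate 3 fitted no scanner array, with 0.844 at most. On the 7 arrays HSPA6 stood at 4.56 to 4.87 where the scanner table says untreated, at 12.58 to 12.75 where it says heat-shocked and at 9.61 to 10.60 where it says recovering, against 4.59 to 4.89, 12.50 to 13.74 and 9.61 to 10.33 on the other 15 arrays. Median intensity was also lower on every array of replicates 3 and 4 than on every array of replicates 1 and 2, and values within these sets are given beside the results.

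All 3 members were detected on 22 of 22 arrays. Their scanner intensities were 322.7 to 850.4 for MT1F, 1185 to 3189 for MT1X and 515.7 to 1171 for MT2A, and the lowest value of each was on the dimmest array, Sat III recovery replicate 3. Further metallothionein probes on the array, 10 probes of the 8 genes MT1B, MT1E, MT1G, MT1H, MT1L, MT1M, MT3 and MT4, were detected on 0 of 22 arrays, with intensities of 35.1 to 74.8 and a lowest detection p-value of 0.021. This held for heat-shocked and recovering samples of both arms, so none of these 8 genes came above background under any condition. MT3 is a brain form and MT4 a form of stratified epithelium. Probes of duplicated genes can bind each other's transcripts, and the share of such binding in the signal of MT1F and MT1X was not tested. Of 8 genes known from HEK293-derived cells, 7 were detected on all arrays and PAX2 on none, whereas 0 of 6 hepatocyte markers and 0 of the 4 keratinocyte markers with a probe were detected on any array. Of 6 fibroblast markers LUM was detected on 22 arrays, COL1A1 on 21, COL3A1 on 2 and the other three on 0, and of 5 blood cell markers with a probe CD14 was detected on 15 arrays and the other 4 on 0. The part of other cell types in the members' signal was not tested.

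**Figure D2:**
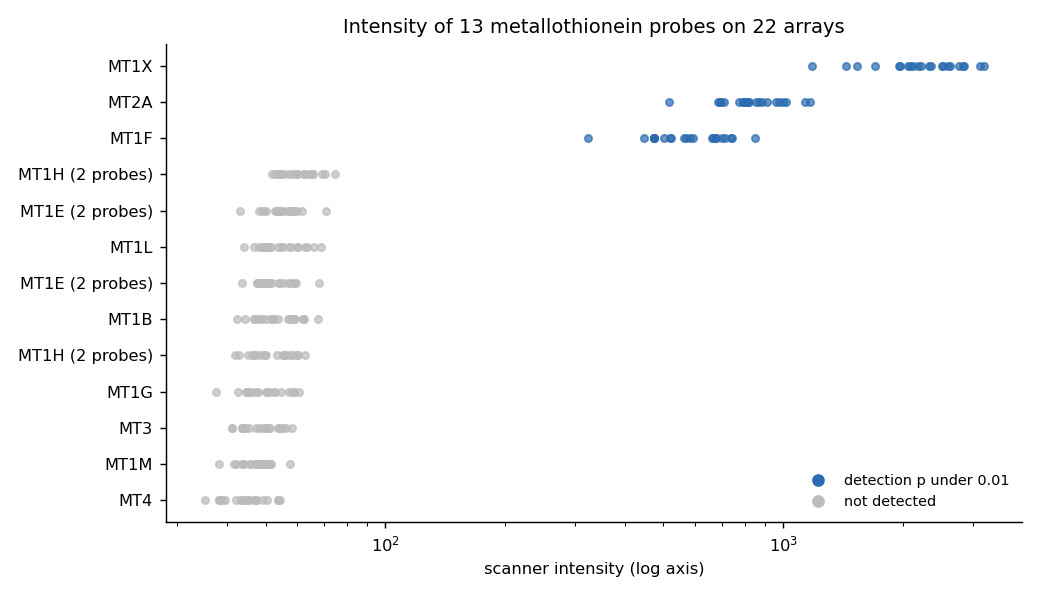
Scanner intensity of every metallothionein probe with 1 gene symbol on the 22 arrays, on a log axis with 1 point per array. Blue points are arrays with a detection p-value under 0.01 and grey points are arrays without detection. MT1X, MT2A and MT1F are blue on all arrays, and the probes of the other 8 genes are grey on all arrays between 35.1 and 74.8.

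MT1X was lower in recovering than in untreated cells of both siRNA arms. In the scrambled arm its log2 intensity was 11.16, 11.25, 11.40 and 11.47 in the untreated samples, 11.02, 11.15, 11.23 and 11.09 after heat shock, and 10.71, 10.90, 10.76 and 10.96 after recovery. All 4 recovering samples lay below all 4 untreated and all 4 heat-shocked ones, with a gap of 0.21 to the lowest untreated sample and of 0.07 to the lowest heat-shocked one. The share of all tested probes with such gaps is not given, so gaps here and below only describe the arrays. MT1X fell by 0.49 ± 0.11 (SE) between untreated and recovering cells of this arm, to 71.3% of the untreated level, with a 95% interval from -0.71 to -0.27 and a limma adjusted p of 0.00644. It was the only member of the 3 that passed in this comparison, in which 9.01% of all tested probes passed and 4.03% passed as lower. The fall did not pass after heat shock alone, where the change was -0.20 ± 0.11 (SE) with a limma adjusted p of 0.303, nor between heat shock and recovery, at -0.29 ± 0.11 (SE) and a limma adjusted p of 0.0631. In those comparisons 10.1% and 19.0% of probes passed. Between heat shock and recovery of this arm, 1 member passed under some alternatives of the processing, which the last section lists. With 1 array left out at a time, the limma adjusted p of MT1X in that comparison ran from 0.0573 to 0.166.

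In the Sat III arm MT1X stood at 11.31, 11.28 and 11.63 untreated, at 11.01, 11.27 and 11.23 after heat shock, and at 10.81, 10.95, 10.70 and 11.20 after recovery. The recovering samples again lay below all untreated ones, with a gap of 0.08, but overlapped the heat-shocked ones. MT1X fell by 0.49 ± 0.12 (SE) from untreated to recovery, to 71.2%, with a 95% interval from -0.73 to -0.25 and a limma adjusted p of 0.0101, and it was again the only member that passed, where 9.61% of probes passed and 4.70% passed as lower. The heat shock change was -0.24 ± 0.12 (SE), with a limma adjusted p of 0.334, and the change from heat shock to recovery was -0.25 ± 0.12 (SE), with a limma adjusted p of 0.139, in comparisons in which 6.74% and 18.7% of probes passed. The difference between the arms in the recovery change of MT1X was -0.0023 ± 0.158 (SE), with a 95% interval from -0.33 to 0.33, so that the arms could have differed by up to that much at this number of arrays. In the 2 tests of differences between arms 0 of 15324 probes passed with limma, and 551 and 573 had an unadjusted p under 0.05.

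Averaged over both arms, a contrast chosen after seeing the data, MT1X fell by 0.49 ± 0.08 (SE) from untreated to recovery, with a limma adjusted p of 0.000145 where 22.5% of probes passed, and by 0.27 ± 0.08 (SE) from heat shock to recovery, with a limma adjusted p of 0.0107 where 33.6% passed. The mean heat shock change of -0.22 ± 0.08 (SE) did not pass, with a limma adjusted p of 0.0775 where 16.1% passed. The group means of MT1X ran in the order Sat III untreated at 11.41 ± 0.19 (SD, n = 3), scrambled untreated at 11.32 ± 0.14 (SD, n = 4), Sat III heat shock at 11.17 ± 0.14 (SD, n = 3), scrambled heat shock at 11.12 ± 0.09 (SD, n = 4), Sat III recovery at 10.92 ± 0.22 (SD, n = 4) and scrambled recovery at 10.83 ± 0.11 (SD, n = 4). Neighbours in this order had overlapping ranges. Because these are whole-culture RNA samples scaled to each other, fewer expressing cells and less RNA per cell cannot be told apart.

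Whether the recovery fall of MT1X passed in a single arm depended on the arrays kept and on the scaling. With each array scaled only by its median, which shifted the median of all tested probes to -0.08 in the scrambled arm and -0.09 in the Sat III arm, the changes were -0.63 and -0.64 with limma adjusted p-values of 0.115 and 0.157, and the mean of both arms was -0.63 with 0.00234. In replicates 1 and 2 alone the changes were -0.40 and -0.42, with limma adjusted p-values of 0.165 and 0.128. The mean of both arms passed there, at -0.41 with a limma adjusted p of 0.0212. The mean fall from heat shock to recovery did not, at -0.27 with 0.0538. In replicates 3 and 4 alone the untreated and heat-shocked Sat III groups are replicate 4 only, so effect sizes alone are given. The recovery changes there were -0.58 and -0.68, with a mean of -0.63, and the mean change from heat shock to recovery was -0.29. With median scaling the mean fall from heat shock to recovery was -0.32, with a limma adjusted p of 0.106. Without Sat III untreated replicate 4 the Sat III change was -0.38 with a limma adjusted p of 0.0753, and without Sat III recovery replicate 4 the change from heat shock to recovery in that arm was -0.35 with 0.0355.

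**Figure D3:**
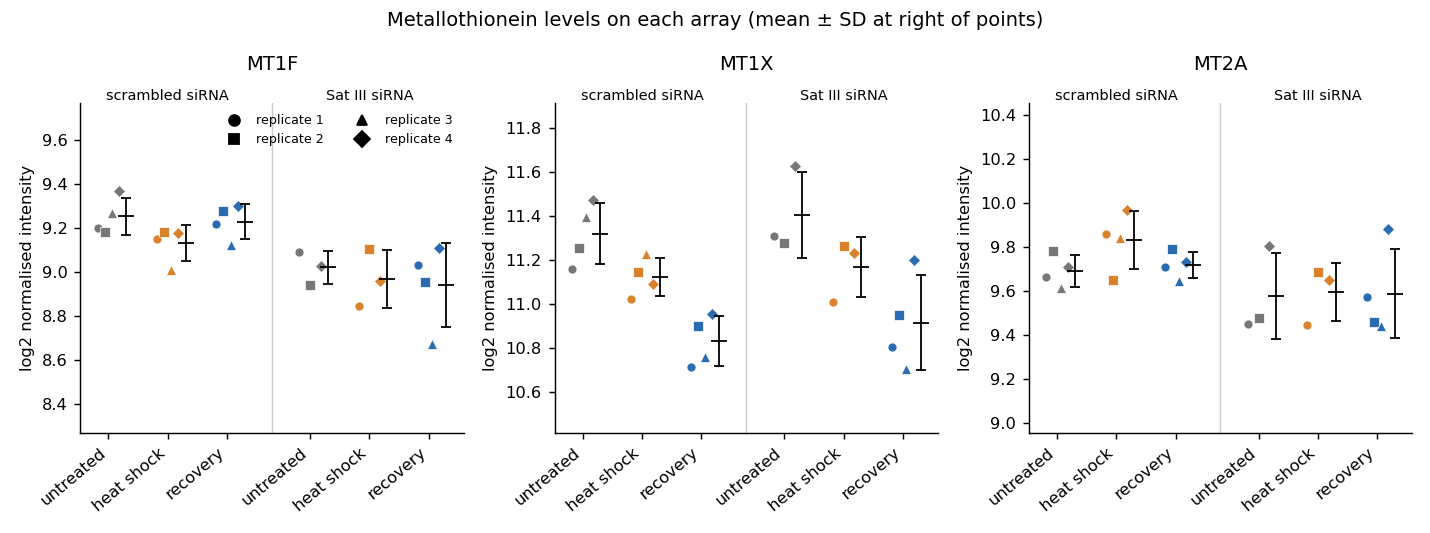
Normalised log2 intensity of MT1F, MT1X and MT2A on each of the 22 arrays, by treatment and siRNA arm, with 1 panel per gene and the same axis span in each. Marker shapes are replicate numbers and the bars are mean ± SD. MT1X is lowest in recovering cells of both arms, MT1F lies lower with Sat III siRNA, and the groups of MT2A overlap.

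MT2A did not pass in any of the comparisons. In the scrambled arm its log2 intensity was 9.66, 9.78, 9.61 and 9.71 untreated, 9.86, 9.65, 9.84 and 9.97 after heat shock, and 9.71, 9.79, 9.64 and 9.73 after recovery. In the Sat III arm it was 9.45, 9.48 and 9.80 untreated, 9.44, 9.69 and 9.65 after heat shock, and 9.57, 9.46, 9.44 and 9.88 after recovery. All pairs of groups overlapped, and 3 of 4 scrambled heat-shocked samples lay above all untreated samples of that arm. The heat shock change of MT2A was 0.14 ± 0.10 (SE) in the scrambled arm, with a 95% interval from -0.07 to 0.35 and a limma adjusted p of 0.481, and 0.02 ± 0.12 (SE) in the Sat III arm, with a 95% interval from -0.22 to 0.26 and a limma adjusted p of 0.965. The recovery change was 0.03 ± 0.10 (SE) and 0.01 ± 0.11 (SE), with 95% intervals from -0.18 to 0.24 and from -0.21 to 0.24. The recovery intervals of MT2A therefore did not reach the fall of 0.49 measured for MT1X. Group means ran in the order scrambled heat shock, scrambled recovery, scrambled untreated, Sat III heat shock, Sat III recovery and Sat III untreated, from 9.83 ± 0.13 (SD, n = 4) to 9.58 ± 0.20 (SD, n = 3), and no neighbours in that order differed beyond their spread.

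MT1F was lower with Sat III siRNA than with scrambled siRNA and showed no treatment change that passed. Its log2 intensity in the scrambled arm was 9.20, 9.18, 9.27 and 9.37 untreated, 9.15, 9.19, 9.01 and 9.18 after heat shock, and 9.22, 9.28, 9.12 and 9.30 after recovery. In the Sat III arm it was 9.09, 8.94 and 9.03 untreated, 8.85, 9.11 and 8.96 after heat shock, and 9.03, 8.96, 8.67 and 9.11 after recovery. The arms did not overlap in untreated cells, with a gap of 0.09, nor in recovering cells, with a gap of 0.01, and overlapped after heat shock. These gaps too lack a share over all tested probes and are description only. The difference between arms was -0.23 ± 0.09 (SE) in untreated cells, with a limma adjusted p of 0.185, and -0.16 ± 0.09 (SE) after heat shock, with 0.418, in comparisons in which 4.88% and 5.51% of probes passed. In recovering cells MT1F was lower by a log2 difference of -0.29 ± 0.09 (SE), at 82.0% of the scrambled level, with a 95% interval from -0.47 to -0.10 and a limma adjusted p of 0.0446, where 8.61% of probes passed and 5.46% passed as lower. It was the only member that passed there.

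This call for MT1F in recovering cells was close to the threshold. It ended when any of 5 arrays was left out. Without Sat III recovery replicate 3, the dimmest array, the difference was -0.20 with a limma adjusted p of 0.153, without Sat III recovery replicate 2 the adjusted p was 0.0832, and without scrambled recovery replicates 1, 2 or 4 it was 0.0808, 0.102 or 0.108. The differences within replicates 1 and 2 and within replicates 3 and 4 were -0.25 and -0.32, with limma adjusted p-values of 0.359 and 0.411, with median scaling the difference was -0.31 with 0.865, and on the 15 matching arrays it was -0.21 with 0.321. Averaged over the 3 treatments, a contrast chosen after seeing the data, MT1F was lower with Sat III siRNA by a log2 difference of -0.23 ± 0.05 (SE), at 85.4% of the scrambled level, with a limma adjusted p of 0.00358 where 22.4% of probes passed. On the 15 matching arrays this mean was -0.18 with 0.0538, within replicates 1 and 2 it was -0.21 with 0.0754, and with median scaling it was -0.26 with 0.243. Within replicates 3 and 4, where the untreated and heat-shocked Sat III groups are replicate 4 only, it was -0.25.

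The arm differences of MT2A and MT1X did not pass in any single treatment. MT2A was at -0.11 ± 0.11 (SE) in untreated, -0.24 ± 0.11 (SE) in heat-shocked and -0.13 ± 0.10 (SE) in recovering cells, with limma adjusted p-values of 0.627, 0.258 and 0.508. MT1X was at 0.08 ± 0.12, 0.05 ± 0.12 and 0.08 ± 0.11 (SE), with limma adjusted p-values of 0.754, 0.894 and 0.734. Averaged over the 3 treatments the difference of MT2A was -0.16 ± 0.06 (SE), with a limma adjusted p of 0.0644, and it passed on the 15 matching arrays, at -0.21 with 0.0303, and without Sat III recovery replicate 4, Sat III untreated replicate 4 or scrambled heat shock replicate 2, with 0.0158, 0.0223 and 0.0408. MT1F and MT2A had negative differences in all 3 treatments and MT1X had positive ones. The group means of MT1F ran from 9.26 ± 0.08 (SD, n = 4) in scrambled untreated through scrambled recovery at 9.23 ± 0.08 (SD, n = 4), scrambled heat shock at 9.13 ± 0.08 (SD, n = 4), Sat III untreated at 9.02 ± 0.07 (SD, n = 3) and Sat III heat shock at 8.97 ± 0.13 (SD, n = 3) to Sat III recovery at 8.94 ± 0.19 (SD, n = 4), with overlap between all neighbours. The treatment changes of MT1F were -0.12 ± 0.09 (SE) after heat shock and -0.03 ± 0.09 (SE) after recovery in the scrambled arm, and -0.05 ± 0.10 (SE) and -0.08 ± 0.09 (SE) in the Sat III arm, with limma adjusted p-values of 0.476, 0.904, 0.869 and 0.665.

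**Figure D4:**
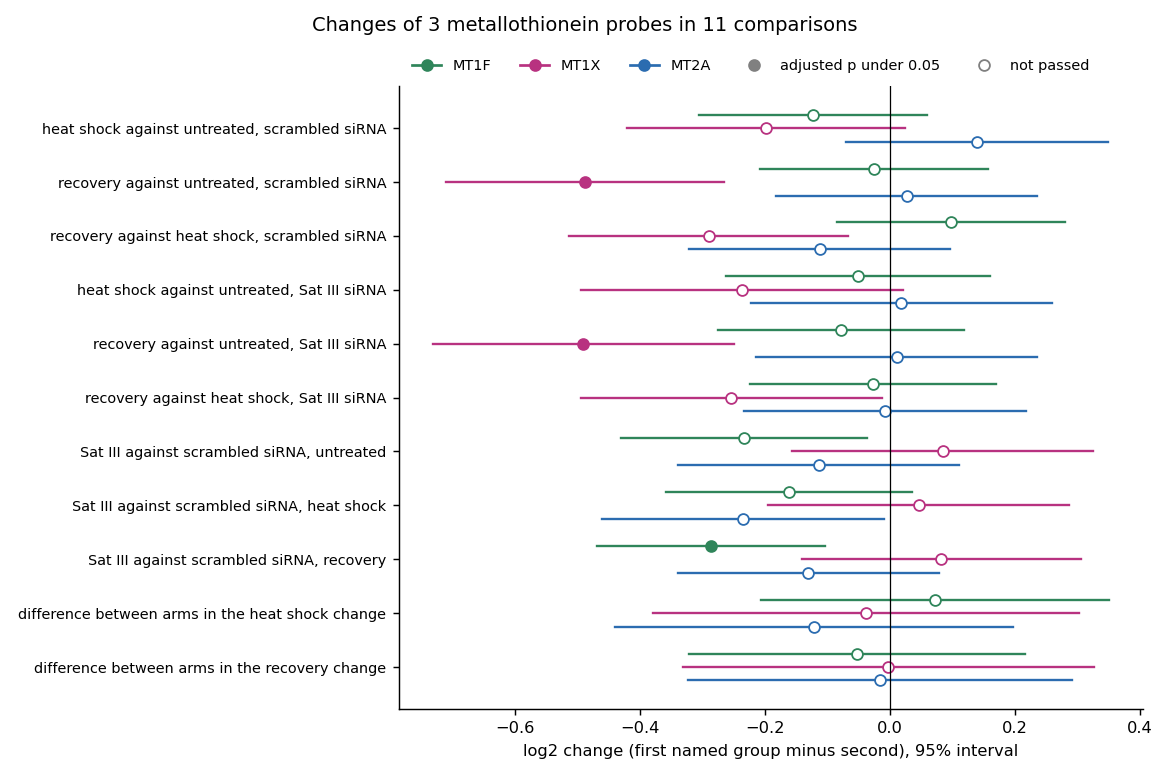
Log2 change of MT1F, MT1X and MT2A in the 11 comparisons, with 95% intervals from limma. Filled points passed an adjusted p of 0.05 and open points did not. The 3 filled points are MT1X in recovery against untreated in both arms, at -0.49 in each, and MT1F in Sat III against scrambled siRNA in recovery, at -0.29.

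MT1X moved apart from both other members within the same arrays. The difference of 2 members' log2 values on 1 array does not depend on that array's overall scale. The mean of its changes in both arms was tested by an exact two-sided permutation of the treatment labels within each arm. The 9 tests were adjusted together, and the comparison was chosen after seeing the data. Each permutation p-value belongs to that mean, and the arms were not tested singly. MT1X minus MT2A was 1.63 ± 0.17 (SD, n = 4) in scrambled untreated, 1.29 ± 0.18 (SD, n = 4) in scrambled heat-shocked and 1.12 ± 0.09 (SD, n = 4) in scrambled recovering cells, and 1.83 ± 0.03 (SD, n = 3), 1.58 ± 0.01 (SD, n = 3) and 1.33 ± 0.12 (SD, n = 4) in the Sat III arm. In the Sat III arm the 3 treatments did not overlap, with ranges of 1.80 to 1.86, 1.57 to 1.58 and 1.234 to 1.497, and in the scrambled arm the recovering samples, at 1.01 to 1.23, lay below all untreated ones, at 1.48 to 1.79. From untreated to recovery the difference changed by -0.52 in the scrambled and -0.50 in the Sat III arm. The mean of both arms, -0.51, had an exact permutation p of 0.000408, the smallest that 2450 arrangements can give, and an adjusted p of 0.00184. From untreated to heat shock the difference changed by -0.34 and -0.25, with a mean of -0.30 and an adjusted exact permutation p of 0.00643. From heat shock to recovery it changed by -0.18 and -0.25, with a mean of -0.21 and an adjusted exact permutation p of 0.014. On the 15 matching arrays the heat shock change of this difference had a mean of -0.25 and an adjusted exact permutation p of 0.06.

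MT1X minus MT1F changed in the same direction from untreated to recovery, by -0.46 in the scrambled and -0.41 in the Sat III arm. The mean of both arms, -0.44, had an adjusted exact permutation p of 0.00184. From heat shock to recovery this difference changed by -0.39 and -0.23, with a mean of -0.31 and an adjusted exact permutation p of 0.00245. Its heat shock change had a mean of -0.13 and an adjusted exact permutation p of 0.123. MT2A minus MT1F did not pass in any of its 3 tests, with mean changes of 0.17 after heat shock, 0.07 after recovery and -0.10 from heat shock to recovery, and adjusted exact permutation p-values of 0.0964, 0.333 and 0.195. Within groups the 3 members nonetheless varied together from array to array. The correlation of deviations from the group means over the 22 arrays was 0.64 for MT1X and MT2A, 0.60 for MT1F and MT1X and 0.46 for MT1F and MT2A, values to which shared array effects also contribute.

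**Figure D5:**
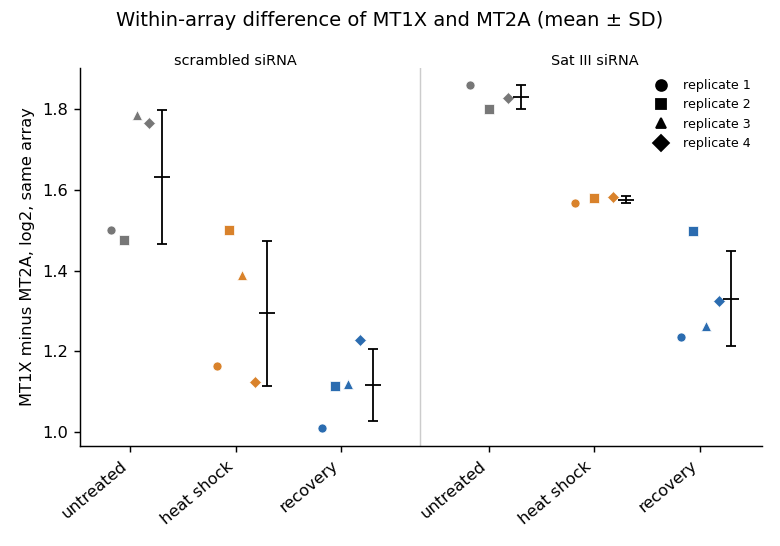
MT1X minus MT2A in log2 units on each of the 22 arrays, by treatment and siRNA arm. Marker shapes are replicate numbers and the bars are mean ± SD. The mean difference steps down from untreated through heat shock to recovery, from 1.63 to 1.12 in the scrambled arm and from 1.83 to 1.33 in the Sat III arm. In the scrambled arm the heat-shocked samples overlap both other treatments.

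The genes that sense and move zinc did not follow 1 direction. Of 12 listed genes of zinc sensing and export, 8 were tested. MTF1, the factor that drives the metallothionein genes, was at 7.20 ± 0.25 (SD, n = 4) in untreated and 7.55 ± 0.18 (SD, n = 4) in heat-shocked scrambled cells, a change of 0.35 ± 0.13 (SE) with a limma adjusted p of 0.0889. In the Sat III arm MTF1 rose by 0.67 ± 0.15 (SE) after heat shock, with a limma adjusted p of 0.00479, and fell by 0.49 ± 0.14 (SE) from heat shock to recovery, with 0.0145, and the difference between arms in its heat shock change, 0.32 ± 0.19 (SE), did not pass. SLC30A1, the zinc exporter of the plasma membrane and itself a target of MTF1, has 2 metal response cores in its promoter. At least 2 cores are found in 8.6% of promoters. Its log2 intensity was 7.87 to 7.96 in untreated, 7.02 to 7.33 in heat-shocked and 7.76 to 8.24 in recovering scrambled cells, and 7.90 to 7.99, 7.28 to 7.37 and 8.27 to 8.43 in the Sat III arm. SLC30A1 fell by 0.75 ± 0.09 (SE) after heat shock in the scrambled arm and by 0.64 ± 0.10 (SE) in the Sat III arm, with limma adjusted p-values of 4.27e-06 and 0.0003, and rose by 0.89 ± 0.09 and 1.03 ± 0.10 (SE) from heat shock to recovery. At recovery SLC30A1 was thus above its untreated level by 0.40 ± 0.10 (SE) in the Sat III arm, with a limma adjusted p of 0.0123, and at 0.14 ± 0.09 (SE) with 0.373 in the scrambled arm, while MT1X was below its untreated level in both.

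Among the 8 tested genes of zinc sensing and export, from untreated to recovery 1 rose and 0 fell in the scrambled arm, with a median change of 0.09 against -0.01 over all tested probes, and 2 rose and 0 fell in the Sat III arm, with a median of 0.16 against -0.01, in comparisons in which 9.01% and 9.61% of all tested probes passed. The scrambled count, 1 of 8, is close to that share. SLC30A3, a vesicular zinc transporter, rose by 0.39 ± 0.08 and 0.38 ± 0.09 (SE). Of 14 zinc importers of the SLC39 family 11 were tested, and 0 rose and 1 fell from untreated to recovery in each arm, with medians of -0.01 and -0.05, again close to the share of all probes. The importer that fell was SLC39A11, by 0.45 ± 0.07 and 0.50 ± 0.08 (SE). Between the siRNA arms, SLC30A9 was lower with Sat III siRNA in all 3 treatments, at -0.58, -0.81 and -0.73, as was the importer SLC39A14, at -0.47, -0.43 and -0.39. SLC39A4, the importer of dietary zinc, was higher by 0.48 in untreated and 0.49 in recovering cells.

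Other listed pathways that touch the metallothioneins were mixed. Of 15 tested copper-handling genes, 1 rose and 1 fell from untreated to recovery in the scrambled arm and 0 rose and 1 fell in the Sat III arm, with medians of -0.07 and -0.09. These counts are close to the shares of all tested probes that passed, 9.01% and 9.61%. The gene that fell in both arms was STEAP3, a metalloreductase, by 0.48 and 0.41. Of 13 tested oxidative stress genes of the factor NRF2, 4 rose and 1 fell in the scrambled arm and 0 rose and 1 fell in the Sat III arm, with medians of 0.24 and -0.03, where 9.01% and 9.61% of all probes passed. In the difference between arms 0 of these 13 genes passed. HMOX1, the heme oxygenase that shares metal and oxidative inducers with the metallothioneins, fell by 0.55 in both arms, whereas the cystine transporter SLC7A11 rose by 0.69 in the scrambled arm. Of 10 tested glucocorticoid response genes, 4 rose and 0 fell after heat shock in the scrambled arm and 3 rose and 0 fell in the Sat III arm, with medians of 0.25 and 0.18, where 10.1% and 6.74% of all probes passed. From untreated to recovery 1 rose and 0 fell in the scrambled arm and 1 rose and 1 fell in the Sat III arm, with medians of -0.01 in both, and from heat shock to recovery 0 rose and 5 and 6 fell, where 19.0% and 18.7% of all probes passed. The genes that rose after heat shock included SGK1, a kinase gene, which rose by 1.16 and 1.24, and the phosphatase gene DUSP1, which rose by 3.45 and 3.62 and is also an immediate early gene. The receptor gene NR3C1 did not pass in any comparison, and its heat shock changes were 0.11 ± 0.13 and 0.13 ± 0.15 (SE).

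A pair of lists served as checks of the labels and the scale. Of 10 heat shock reference genes, 9 rose and 0 fell after heat shock in the scrambled arm and 8 rose and 0 fell in the Sat III arm, with HSPA6 up by 8.39 ± 0.24 and 8.67 ± 0.28 (SE) and DNAJB1, an HSP40 co-chaperone, up by 4.42 ± 0.09 and 4.41 ± 0.11 (SE). The heat shock changes of the 3 metallothioneins lay between -0.24 and 0.14, and those of HSP90AA1, the reference gene with the smallest change, were 0.18 in both arms and did not pass. Of 6 reference genes 0 passed in the 6 treatment comparisons, and TBP was lower by -0.30 with Sat III siRNA in recovery, a difference of the same size as that of MT1F. In the mean over the 3 treatments, where MT1F was at -0.23, 2 of the 6 reference genes passed as lower, TBP at -0.25 with a limma adjusted p of 0.000634 and PPIA at -0.37 with 0.0211, and the other 4 lay between -0.08 and 0.06. TESMIN, listed with the metallothioneins for its older name and the only other tested gene of that list, did not pass in any comparison.

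The genes whose level ran most like that of a member over the 22 arrays differed between members. For MT1X the highest of 10144 Pearson correlations were with UQCC2 at 0.868, NSDHL at 0.853, ACP6 at 0.843, MRPS16 at 0.836 and CHCHD5 at 0.832. For MT1F they were with IFITM2 at 0.817, ADORA1 at 0.814, KDM4A at 0.812, GINS2 at 0.803 and BRCA1 at 0.803, and for MT2A with ALKBH5 at 0.783, OBI1 at 0.774, EEF2K at 0.769, AFAP1 at 0.743 and MIDN at 0.737. The arrays share their treatments and siRNA arms, so these values describe the pattern over the 6 groups as much as that between replicates. Over the same arrays the members correlated with each other at only 0.20 for MT1X and MT2A, 0.23 for MT1F and MT1X and 0.54 for MT1F and MT2A.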

How the data were processed

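Per the file headers, the authors deposited a scanner table with an intensity and a detection p-value per probe. Its values are linear and differ in median between arrays, with no background subtracted. A second table from the authors holds normalised intensity, used as an alternative. Its values are linear, and each of its columns has a median of 56.24. The normalisation method and the software behind both tables were not given in the sources used here. Per the labels' protocols, 300 ng of total RNA was amplified and biotin-labelled.

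Scanner intensities were background-corrected with normexp, using a background inferred from the detection p-values, quantile-normalised and log2-transformed with an offset of 16 (neqc of limma 3.58.1, R 4.3.3). Probes detected at a p-value under 0.01 on at least 3 arrays were tested, 15324 of 48803. Of all probes, 28098 had 1 gene symbol and 20705 had none or several in the platform annotation, and 28059 symbols were updated through the gene number. A linear model with 6 group means gave 11 comparisons, and 4 means over arms or treatments were added after seeing the data. The number of arrays limits the precision. The model was tested on simulated data.

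The members and gene lists were chosen with earlier results of these data known. From the lists, genes past the threshold were named, at most 4 per list and comparison, with MTF1, SLC30A1, NR3C1, HSPA6 and DNAJB1 always named where given. Same-numbered samples deviated together in Sat III against scrambled siRNA at recovery (correlations of 0.12 to 0.25 for all 4 pairs), where a replicate block changed no call. All pairs were also positive in recovery against heat shock, at 0.05 to 0.24 (scrambled) and 0.05 to 0.26 (Sat III). So were those in recovery against untreated of the Sat III arm, at 0.08 to 0.28. Each other comparison held a negative pair. Alternatives covered background correction, offset, scaling, detection filter, the block, replicate sets, left-out arrays and the authors' table.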

Additional observations from a re-analysis of the deposited data

How the results depend on the processing

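The number of the 3 members past the threshold was computed under each alternative for the 11 comparisons and the 4 added means, and no change of a called member reversed its direction. With median scaling the count went to 0 for recovery against untreated in the scrambled arm, in the Sat III arm and for Sat III against scrambled siRNA in recovery, for the mean of recovery against heat shock and for the mean siRNA difference. That scaling also lowered the count of all probes from 1380 to 50 in recovery against untreated of the scrambled arm and from 1473 to 61 in the Sat III arm, shifted the median heat shock change of all probes to -0.11, and moved the share of higher probes among those called in Sat III against scrambled siRNA from 39.8% to 7.84% untreated, from 33.5% to 11.7% after heat shock and from 36.6% to 4.61% in recovery. Replicates 1 and 2 alone gave a count of 0 in the same comparisons. No count is given for replicates 3 and 4 alone, where the untreated and heat-shocked Sat III groups are replicate 4 only. Apart from the counts above for median scaling, the share of all tested probes that passed under each alternative is not given. The counts of members here therefore only describe the fits and are not a result about the members. The authors' table with columns as labelled gave a count of 0 in all 6 results with a count of 1, and MT1X was at -0.26 and -0.25 in the arms. In that table the 6 columns labelled replicate 4 hold the values of the preceding scanner array, so arrays of different treatments and arms are exchanged between groups in this fit. Its matching columns gave 0 for recovery against untreated in the Sat III arm, where MT1X was at -0.41, and 0 for Sat III against scrambled siRNA in recovery, where MT1F was at -0.20. They gave 1 for recovery against heat shock in the scrambled arm and 2 for the mean siRNA difference. The scanner values of the 15 matching arrays gave counts of 0, 0 and 1 in the first 3 of these, and in the mean siRNA difference MT2A passed at -0.21 with a limma adjusted p of 0.0303 in place of MT1F. Fitting only the groups compared gave 0 for recovery against untreated in the Sat III arm and for Sat III against scrambled siRNA in recovery, and 1 for recovery against heat shock in the scrambled arm. Without a detection filter the count for Sat III against scrambled siRNA in recovery was 0. No background correction and an offset of 50 each gave 1 for recovery against heat shock in the scrambled arm and 2 for the mean siRNA difference. The replicate numbers mark no stated pairing in any group. The replicate block gave 1 for recovery against heat shock in the scrambled arm, 1 for the mean heat shock change and 2 for the mean siRNA difference, where MT2A was at -0.18 with a limma adjusted p of 0.0234. A block for replicates 1 and 2 against 3 and 4 gave 1 for recovery against heat shock in the scrambled arm and 1 for the mean heat shock change, where the adjusted p of MT1X was 0.0463. Leaving out 1 array at a time gave counts of 0 to 1 for recovery against untreated in the Sat III arm, for recovery against heat shock in that arm and for Sat III against scrambled siRNA in recovery, and of 1 to 2 for the mean siRNA difference. The mean fall of MT1X in recovery ranged from -0.54 to -0.43 and passed each time. The cause of these differences was not tested, and the fits that leave arrays out also rest on fewer arrays.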
